A study of Homo sapiens with 6 samples.

Results

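The 10 genes described here are those of the epidermal growth factor receptor (EGFR, or ErbB) system and of KIT ligand that were chosen by name in the expression tables of MDA-MB-231 cells: the receptors EGFR, ERBB2 and ERBB3, the ligands TGFA, AREG, EREG, HBEGF and NRG1, the receptor inhibitor ERRFI1, and KITLG. All 10 were found among the 41471 gene symbols of the CDK16 knockdown experiment and among the 34157 of the rebastinib (Reb) experiment, and all 10 passed the filter on low values in both. The choice was made with the same comparisons in view. KITLG was included for being lower with both hairpins and higher at both doses, so its values, and those of the other 9 genes in these comparisons, are a description and no test was run on them.

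ErbB receptors are tyrosine kinases of the cell surface that pair with each other when a ligand binds, and they feed the Ras-ERK and PI3K-AKT pathways. EGFR binds the EGF-type ligands, ERBB3 binds neuregulins and has little kinase activity of its own, and ERBB2 has no known ligand and acts as the partner of the others. Most ligands are made as membrane-anchored precursors and are released by metalloproteases such as ADAM17, and ERRFI1 (MIG6) is a feedback inhibitor that binds the kinase domains of active receptors. EGFR is often abundant in triple-negative breast cancer (TNBC), a class defined by the lack of estrogen receptor, progesterone receptor and HER2 (ERBB2) overexpression. KITLG (stem cell factor) is the ligand of KIT, a receptor of a different tyrosine kinase family.

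MDA-MB-231 is a cell line established from a TNBC. In the knockdown experiment the cells stably carried a lentiviral scramble-shRNA, CDK16-sh1 or CDK16-sh2, and in the Reb experiment they were kept for 48 h with DMSO, 1 μM Reb or 5 μM Reb. Reb is a small-molecule kinase inhibitor that the study used to inhibit CDK16, a cyclin-dependent kinase. The study describes Reb as also acting on other kinases, such as Tie2. Each of the 6 conditions was 1 RNA-seq library of 1 cell line, both treated libraries of an experiment share 1 control library, and no difference has a replicate check.

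Total counts ranged from 25838443 to 50303269. CDK16, the targeted gene, had 3223 counts with the scramble-shRNA, 1360 with CDK16-sh1 and 846 with CDK16-sh2, which are log2 fold changes of -1.52 and -1.82. The markers of the line were present in all 6 libraries (VIM from 177 to 833 RPKM, AXL from 45.4 to 222 RPKM), those of luminal epithelium were near 0 for ESR1, PGR, FOXA1 and CDH1 (at most 0.207 RPKM) but not for KRT19 (17.5 to 147 RPKM), GATA3 and EPCAM, and those of leukocytes, endothelium and liver stayed at or below 0.395 RPKM. The 5 μM Reb library stood apart: 16.4% of its counts fell on mitochondrial genes against 7.19% with DMSO and 8.30% at 1 μM, its 100 most abundant genes took 35.2% of the counts against 24.3% with DMSO, and its TMM factor was 0.718 against 1.16 with DMSO. The CDK16-sh2 library had 16.2% mitochondrial counts against 11.3% with the scramble-shRNA. The part of these shifts in the values below was not tested.

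Levels within a gene are given as counts and as TMM-scaled CPM, the counts relative to the library's effective size, levels between genes as RPKM, which is relative to gene length as well, and differences as log2 fold changes with their 95% Clopper-Pearson intervals. These intervals cover counting error only. A difference past 2-fold is a log2 fold change beyond 1 or -1. In bulk RNA, fewer cells expressing a gene and less RNA per cell cannot be told apart.

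The knockdown left most of the ErbB genes within 2-fold of the control. With CDK16-sh1, 1 of the 10 genes was lower past 2-fold, KITLG, beside 6.86% of all 15295 genes tested, and none was higher, beside 4.33% of all genes. With CDK16-sh2, AREG, TGFA and KITLG were lower, beside 7.62% of all genes, and none was higher, beside 2.2%. KITLG was the gene lower with both hairpins, beside 1.44% of all genes, and none of the 10 was higher with both, beside 0.438%. The median log2 fold change of the 10 genes was 0.15 with CDK16-sh1 and -0.02 with CDK16-sh2, against -0.002 and 0.02 for all genes.

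With Reb, the picture depended on the dose. At 1 μM, KITLG was higher past 2-fold, beside 1.28% of all 15655 genes tested, and none was lower, beside 1.92%. At 5 μM, EGFR and ERBB3 were lower, beside 27.2% of all genes, and EREG and KITLG were higher, beside 23.6%, so that 2 of the 10 genes passed 2-fold in each direction in a library where a large share of all genes did. At both doses, KITLG was higher, beside 0.645% of all genes, and none was lower, beside 1.08%. The median of the 10 genes was 0.13 at 1 μM and -0.48 at 5 μM, against 0.002 and -0.07 for all genes.

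**Figure D1:**
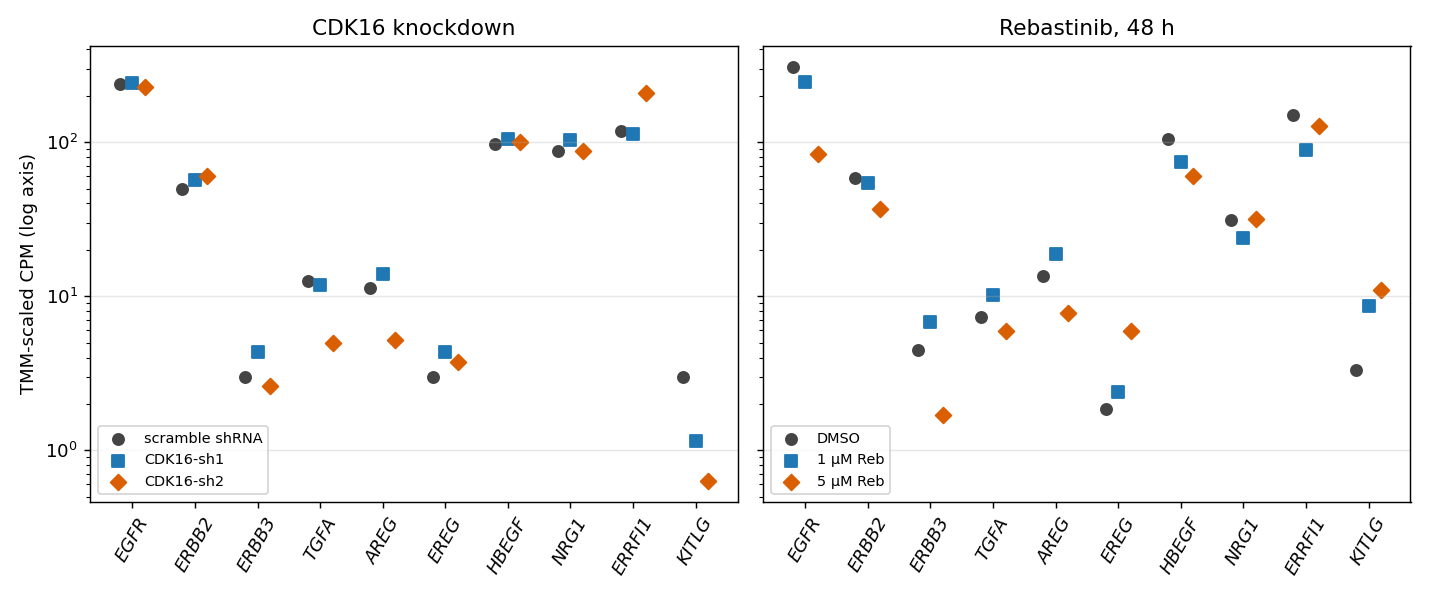
TMM-scaled CPM (log axis) of the 10 genes in each library, 1 point a library, for the knockdown experiment (left) and the Reb experiment (right). EGFR lies between 229 and 241 CPM in the 3 knockdown libraries and goes from 309 CPM with DMSO to 83.7 CPM at 5 μM Reb, and KITLG lies below its control with both hairpins and above it at both doses.

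**Figure D2:**
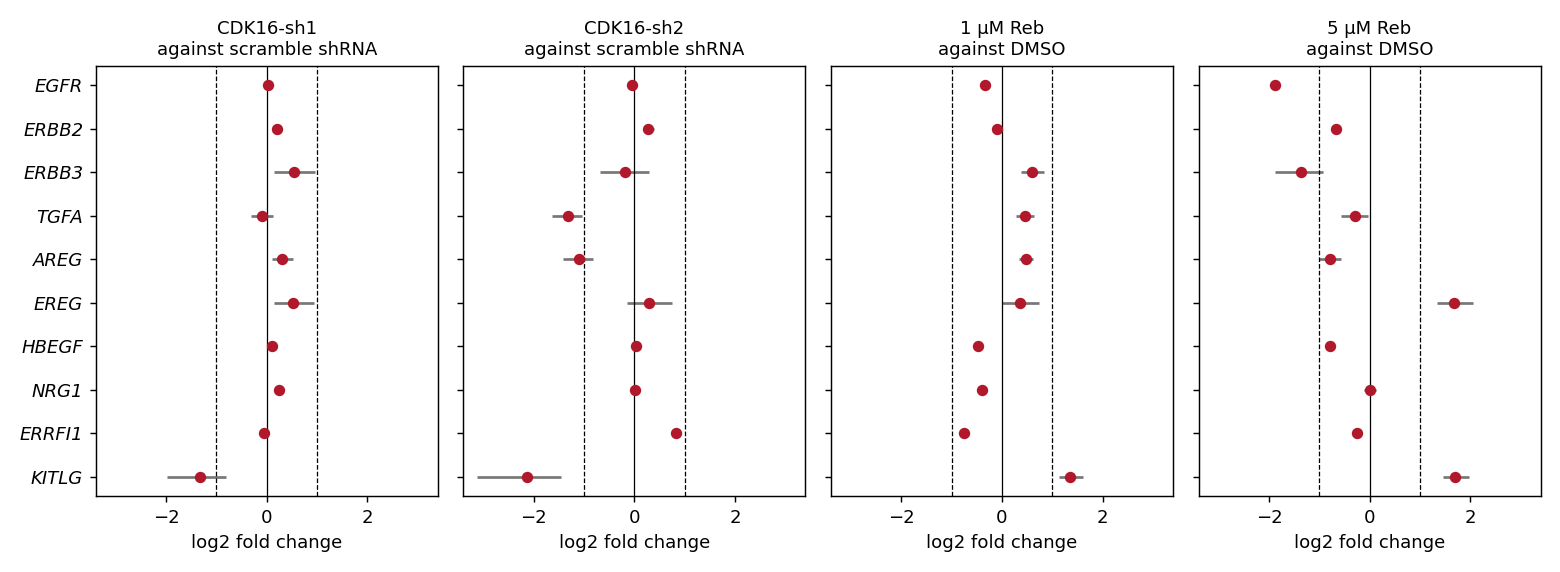
Log2 fold change of the 10 genes against the control library in the 4 comparisons, with bars for the 95% Clopper-Pearson interval of the counts and dashed lines at 2-fold. KITLG is beyond the lines in all 4 panels, at -1.33, -2.13, 1.36 and 1.71, and its bar is widest with CDK16-sh2, where it had 16 counts.

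Among the receptors, EGFR (chr7:55019021-55211628, plus strand, GRCh38) was the most abundant. It had 6459 counts with the scramble-shRNA, 7954 with CDK16-sh1 and 5791 with CDK16-sh2, which are 237, 241 and 229 CPM. The 3 levels were nearly the same with TMM, with log2 fold changes of 0.02 (-0.02 to 0.07) and -0.05 (-0.10 to 0.00), and both intervals include 0. For EGFR too, the processing mattered. CDK16-sh1 gave 0.24 with the trend of expression and length removed, and CDK16-sh2 gave -0.25 with library totals. With DMSO, 1 μM and 5 μM Reb it had 18029, 14540 and 2265 counts, which are 309, 245 and 83.7 CPM. It was thus lower at each dose and lowest at 5 μM. The log2 fold change was -0.33 (-0.37 to -0.30) at 1 μM, the 17.4 percentile of all genes, and -1.88 (-1.95 to -1.82) at 5 μM, the 11.5 percentile. EGFR-AS1, which overlaps EGFR exons on the opposite strand, had 708, 515 and 111 counts in the same 3 libraries.

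ERBB2 (chr17:39687914-39730426, plus strand), the partner receptor, differed least from DMSO of the 3 at 5 μM. Its counts were 1349, 1876 and 1520 with the scramble-shRNA, CDK16-sh1 and CDK16-sh2, or 49.5, 56.9 and 60.1 CPM. The log2 fold changes were 0.20 (0.10 to 0.30) and 0.28 (0.17 to 0.39), small differences above the counting error that depended on the processing. They became -0.09 and 0.27 with the trend with GC content removed, and 0.17 and 0.08 with counts scaled by library totals. With DMSO, 1 μM and 5 μM Reb it had 3396, 3225 and 996 counts, or 58.2, 54.4 and 36.8 CPM. At 5 μM the log2 fold change was -0.66 (-0.76 to -0.56), which lay within 2-fold with TMM and DESeq2 size factors but reached -1.35 when counts were scaled by library totals. Its annotated exons overlap those of PGAP3 and MIEN1 on the other strand.

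ERBB3 (chr12:56079857-56103505, plus strand), a neuregulin receptor, was the scarcest of the chosen receptors. It had 81, 143 and 66 counts in the knockdown experiment, or 2.98, 4.34 and 2.61 CPM. CDK16-sh1 was above the control, 0.53 (0.14 to 0.95), and CDK16-sh2 did not differ from it beyond counting error, -0.18 (-0.68 to 0.30). The Reb experiment gave 260, 401 and 46 counts, or 4.46, 6.76 and 1.70 CPM. ERBB3 was therefore highest at 1 μM, with a log2 fold change of 0.60 (0.37 to 0.83) and the 94.3 percentile, and lowest at 5 μM, with -1.37 (-1.88 to -0.93) and the 19.6 percentile. The call at 5 μM was lost when the trend with expression and gene length was removed (-0.84). ERBB3 shares exon positions on the same strand with the annotated gene RP11-603J24.9. That gene had 5029, 5903 and 6238 counts in the knockdown experiment and 10243, 9384 and 2815 in the Reb experiment. Reads in the shared positions are therefore uncertain, which also limits the ERBB3 RPKM in the shares, totals and order below.

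The fourth receptor of the family, ERBB4, had 1, 0 and 2 counts in the knockdown experiment and 8, 9 and 2 in the Reb experiment, at most 0.0140 RPKM. Compared per gene length, with the RPKM deposited by the authors, EGFR made up 78.7% of the summed receptor RPKM with the scramble-shRNA, 76.2% with CDK16-sh1 and 74.9% with CDK16-sh2. Under Reb its share went from 80.0% with DMSO to 76.4% at 1 μM and 64.0% at 5 μM. ERBB2 held most of the remainder, 18.3%, 20.5% and 34.1% in order of dose. The receptor total, after TMM scaling, was 24.1, 25.3 and 24.4 in the 3 knockdown libraries, and 30.9, 25.7 and 10.5 with DMSO, 1 μM and 5 μM Reb.

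**Figure D3:**
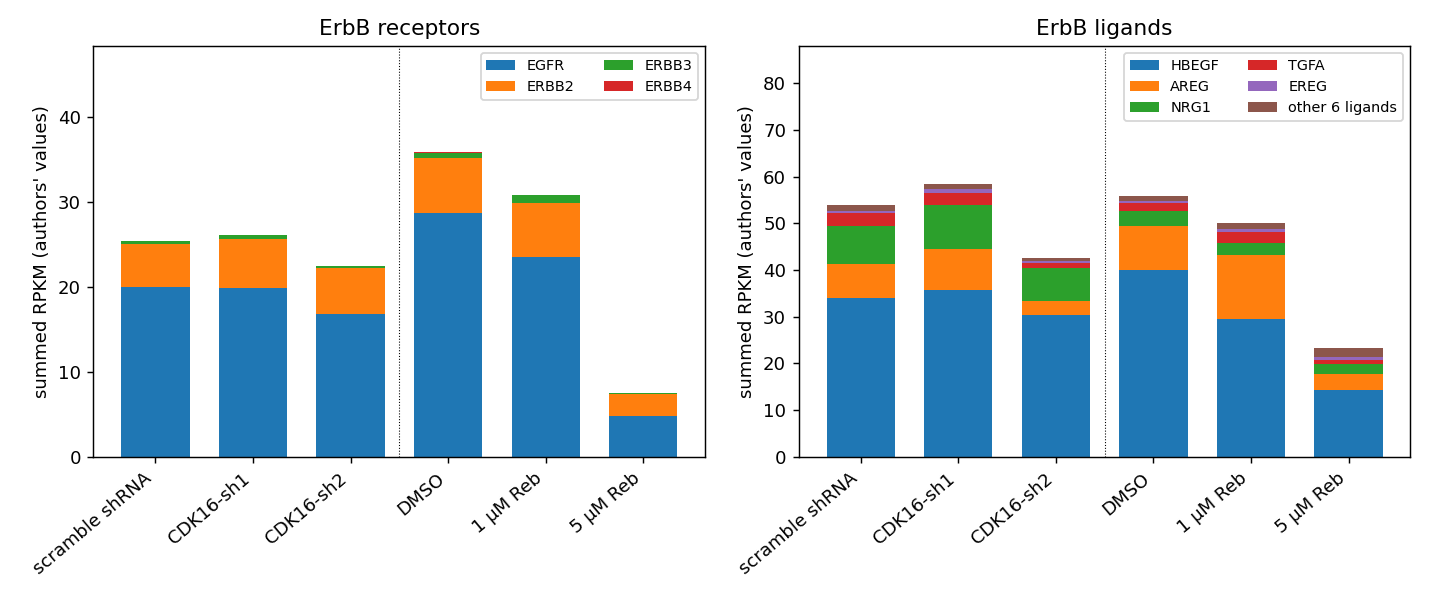
Summed RPKM of the ErbB receptors (left) and ErbB ligands (right) in each library, as deposited by the authors and without TMM scaling, stacked by gene. EGFR and HBEGF are the largest blocks of their panels in all 6 libraries, and within the Reb experiment both totals are lowest at 5 μM, at 7.52 RPKM for receptors and 23.4 RPKM for ligands.

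Among the ligands, HBEGF (chr5:140332843-140346631, minus strand), a heparin-binding ligand of EGFR and ERBB4, led per length in every library, with 59.0% to 71.7% of the summed ligand RPKM. Its counts were 2661, 3451 and 2528 in the knockdown experiment, or 97.7, 105 and 99.98 CPM. The log2 fold changes of 0.10 (0.03 to 0.17) with CDK16-sh1 and 0.03 (-0.05 to 0.11) with CDK16-sh2 were close to 0. With DMSO, 1 μM and 5 μM Reb it had 6073, 4411 and 1637 counts, or 104, 74.4 and 60.5 CPM. HBEGF was lower at both doses, at -0.48 (-0.54 to -0.43), the 10.2 percentile, and -0.78 (-0.86 to -0.70), the 31.9 percentile. The latter went past 2-fold with library totals (-1.47) and with the trend of expression and length removed (-1.10).

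AREG (amphiregulin, chr4:74445134-74455009, plus strand), a ligand of EGFR, differed between the hairpins. It had 308 counts with the scramble-shRNA, 463 with CDK16-sh1 and 132 with CDK16-sh2, or 11.3, 14.0 and 5.22 CPM. CDK16-sh1 was thus above the control and CDK16-sh2 below it, with log2 fold changes of 0.31 (0.10 to 0.52) and -1.11 (-1.42 to -0.82), the latter at the 6.08 percentile. With the trend of expression and length removed, these became 0.06 and -1.11. The doses of Reb differed likewise, with 785, 1111 and 211 counts, or 13.5, 18.7 and 7.80 CPM. AREG was higher at 1 μM, 0.48 (0.34 to 0.61), the 90.7 percentile, and lower at 5 μM, -0.78 (-1.01 to -0.57). At 5 μM library totals gave -1.47, past 2-fold.

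TGFA (transforming growth factor alpha, chr2:70447280-70554193, minus strand), another EGFR ligand, lay nearest to AREG of the other 9 genes across the 4 comparisons. It had 343, 389 and 126 counts with the scramble-shRNA, CDK16-sh1 and CDK16-sh2, or 12.6, 11.8 and 4.98 CPM. Only CDK16-sh2 stood apart from the control, at -1.33 (-1.64 to -1.04), the 3.96 percentile, against -0.09 (-0.31 to 0.12) with CDK16-sh1. With Reb it had 430, 602 and 162 counts, or 7.37, 10.2 and 5.99 CPM. TGFA was higher at 1 μM, 0.46 (0.28 to 0.64), the 90.0 percentile, and slightly lower at 5 μM, -0.30 (-0.57 to -0.04), a difference that turned to 0.04 with the trend of expression and length removed.

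EREG (epiregulin, chr4:74365143-74388751, plus strand), a ligand of EGFR and ERBB4 and the neighbour of AREG on the chromosome, was scarce. In the knockdown experiment it had 82, 144 and 94 counts, or 3.01, 4.37 and 3.72 CPM. CDK16-sh1 was above the control, 0.53 (0.13 to 0.94), and CDK16-sh2 was not beyond counting error, 0.30 (-0.14 to 0.75). The Reb experiment gave 108, 142 and 162 counts, or 1.85, 2.40 and 5.99 CPM. EREG was higher at 5 μM, 1.67 (1.33 to 2.06), the 88.1 percentile, but the raw counts at 1 μM and 5 μM were close, and scaling by library totals gave 0.99 and the RPKM 0.84, both short of 2-fold.

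EREG had a GC content of 36.1%, and genes of low GC content were on the whole higher at 5 μM. At this dose the median was 0.41 over the fifth of genes with the lowest GC content and -0.59 over the fifth with the highest. With CDK16-sh1 these medians were -0.43 and 0.42, and EREG reached 1.01 once that trend was removed. At 5 μM, removing the trend took EREG from 1.67 to 1.10, still past 2-fold.

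The promoters of AREG and EREG are shown since these neighbouring genes lay on opposite sides of the control at 5 μM. Each is the 250 bases before the start listed in the RefSeq promoter table for GRCh38.p14, of which the last 2 lie in the gene's exon as deposited, written 5′ to 3′ on the plus strand, AREG at chr4:74444886-74445135 and EREG at chr4:74364895-74365144. Capitals mark the TATA box letters (TATAAA) and, in AREG, the cyclic AMP response element (CRE, TGACGTCA).
AREG: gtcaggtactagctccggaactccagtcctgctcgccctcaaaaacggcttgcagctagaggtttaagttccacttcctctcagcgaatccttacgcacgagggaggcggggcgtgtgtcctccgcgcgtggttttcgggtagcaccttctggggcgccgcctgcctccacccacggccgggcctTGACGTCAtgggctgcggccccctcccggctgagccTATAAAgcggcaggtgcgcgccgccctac
EREG: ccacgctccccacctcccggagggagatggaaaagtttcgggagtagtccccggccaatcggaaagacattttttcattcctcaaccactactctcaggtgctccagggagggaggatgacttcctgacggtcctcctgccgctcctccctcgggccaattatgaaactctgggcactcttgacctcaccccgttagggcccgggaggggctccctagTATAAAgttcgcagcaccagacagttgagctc

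Both windows held TATAAA, 29 to 24 bases before the start in AREG and 32 to 27 in EREG, as did 10.7% of the 35116 promoters of the table when searched on both strands. The CRE letters lay 65 to 58 bases before the start of AREG and were found in 1.65% of all promoters. Of the 8 genes with an entry in the table, KITLG held TATAAA as well, ERBB2 held the AP-1 letters TGANTCA (6.57% of all promoters), and TGFA the NF-kB consensus (9.96%). EGFR and TGFA each had 2 listed starts. The match of TGFA lay before its first and its second held none of the 7 motifs, whereas the first of EGFR held none and the second held 2 matches each of TATAAA and TGANTCA. HBEGF and ERRFI1 held none of them either, but forms of the TATA box other than TATAAA were not searched. The other motifs were the CArG box, found in 1.16% of all promoters, the E2F letters TTTCCCGC in 1.39%, and the antioxidant element TGACNNNGC in 10.9%. ERBB3 and NRG1 had no entry.

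NRG1 (neuregulin-1, chromosome 8, 31639386 to 32767959, plus strand), the ligand of ERBB3 and ERBB4, had 2372, 3422 and 2222 counts in the knockdown experiment, or 87.1, 104 and 87.9 CPM. CDK16-sh1 was slightly above the control, 0.25 (0.18 to 0.33), and CDK16-sh2 matched it, 0.01 (-0.07 to 0.10). Its counts with DMSO, 1 μM and 5 μM Reb were 1830, 1411 and 855, or 31.4, 23.8 and 31.6 CPM. It was lower at 1 μM, -0.40 (-0.50 to -0.30), the 14.0 percentile, and at the control's level at 5 μM, 0.01 (-0.11 to 0.13), a value that became -0.68 with library totals.

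ERRFI1 (chr1:8004404-8026308, minus strand), the feedback inhibitor of the receptors, was the gene with the largest upward difference with CDK16-sh2 among the 10. It had 3203, 3729 and 5249 counts with the scramble-shRNA, CDK16-sh1 and CDK16-sh2, or 118, 113 and 208 CPM. CDK16-sh1 did not differ from the control beyond counting error, -0.06 (-0.13 to 0.01), while CDK16-sh2 was above it, 0.82 (0.76 to 0.88), the 95.5 percentile, yet short of 2-fold. With DMSO, 1 μM and 5 μM Reb it had 8757, 5246 and 3432 counts, or 150.2, 88.5 and 127 CPM. With TMM, ERRFI1 was lowest at 1 μM, -0.76 (-0.81 to -0.71), the 4.01 percentile and the lowest value of the 10 genes at that dose. It was nearer the control at 5 μM, -0.24 (-0.30 to -0.19). The order of the doses depended on the scaling, since 5 μM against 1 μM was -0.22 with library totals.

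KITLG (chr12:88492793-88580851, minus strand), the KIT ligand, had few counts in the knockdown libraries. In the knockdown experiment it had 82 counts with the scramble-shRNA, 38 with CDK16-sh1 and 16 with CDK16-sh2, or 3.01, 1.15 and 0.633 CPM. Both hairpins were below the control, at -1.33 (-1.98 to -0.81), the 2.94 percentile, and -2.13 (-3.12 to -1.47), the 0.850 percentile. Its counts in the Reb experiment were 194 in the DMSO library, 510 in the 1 μM library and 296 in the 5 μM library, or 3.33, 8.60 and 10.9 CPM. Both doses were above the control, at 1.36 (1.13 to 1.62), the 99.6 percentile, and 1.71 (1.45 to 1.99), the 88.6 percentile. KITLG thus lay on opposite sides of the control in the 2 experiments, the pattern by which it was selected. Among the 14410 genes tested in both experiments, 5 (0.0347%) were lower with both hairpins and higher at both doses past 2-fold, and the others were FRMD3, OLFML3, RP11-494M8.4 and 1 more gene known only by a clone name, given here after their values were seen.

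The KITLG calls had limits. Its GC content was 37.3%, and genes of low GC content as a whole leaned to the same sides as KITLG. The fifth of genes with the lowest GC content had medians of -0.43 with CDK16-sh1 and -0.14 with CDK16-sh2. At 1 μM and 5 μM its medians were 0.145 and 0.41. For the fifth with the highest, the 4 medians were 0.42, 0.11, -0.19 and -0.59. The part of this trend in the KITLG pattern was not tested. With the GC trend removed, KITLG was at -0.87 with CDK16-sh1, short of 2-fold, and -1.89 with CDK16-sh2. At 5 μM the RPKM gave 0.92. Its mean in the knockdown experiment was under 5 CPM, so that a stricter filter left it out there. The 30 bases around its TATA letters, read from the same RefSeq table on the minus strand of chr12:88580482-88580511, are given to set beside the windows of AREG and EREG above. Capitals mark TATAAA, 29 to 24 bases before the start listed in the table, as far from the start as in AREG. In the deposited annotation this stretch lies within an exon of KITLG.
KITLG: ggcgggaactgTATAAAagcgccggcggct

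KIT itself was at 2, 2 and 0 counts in the knockdown experiment and at 0 in the 3 Reb libraries. Of the 12 genes of the KIT, CSF1 and PDGF receptors and ligands, 8 were tested in the knockdown experiment, of which 3 were higher and 1 lower past 2-fold with CDK16-sh1, beside 4.33% and 6.86% of all genes, and 4 lower with CDK16-sh2, beside 7.62%. The medians of the 8 genes were 0.70 and -1.14. With Reb 6 were tested, none past 2-fold at 1 μM and 3 lower at 5 μM, beside 27.2% of all genes. No gene of this list passed 2-fold the same way in both treated libraries of an experiment.

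**Figure D4:**
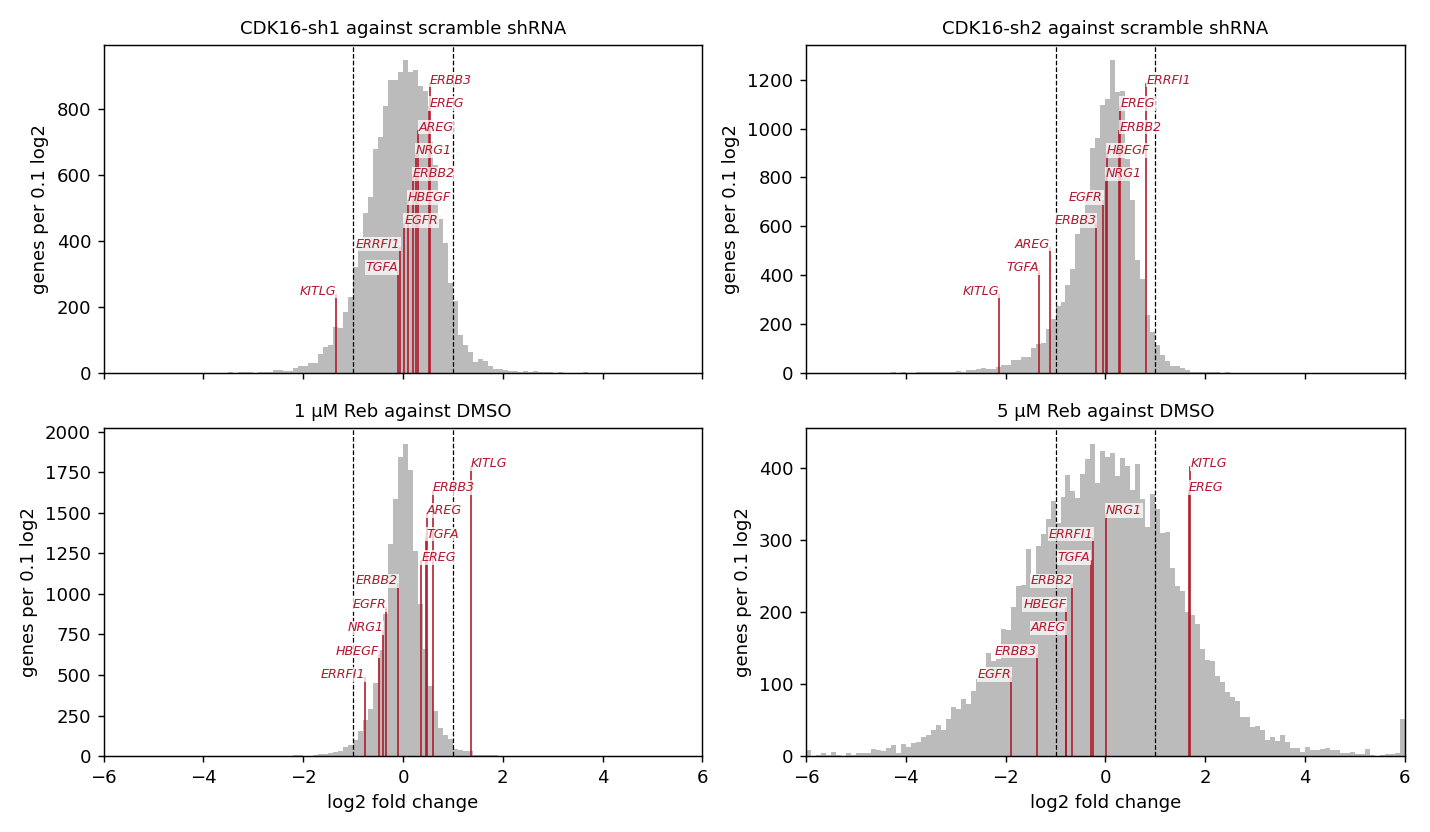
Number of genes in steps of 0.1 log2 fold change (grey) for the 4 comparisons, with the 10 genes as red lines, whose heights serve only to separate the names, and dashed lines at 2-fold. The end steps at 6 and -6 also hold the genes beyond them. The grey spread is widest at 5 μM Reb, where the middle 95% of genes ran from -3.11 to 3.01, against -0.90 to 0.83 at 1 μM.

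A direct comparison of the treated libraries gave the spread between the hairpins and between the doses. CDK16-sh2 was below CDK16-sh1 past 2-fold for AREG, -1.41 (-1.72 to -1.15), and TGFA, -1.23 (-1.54 to -0.95), and was above it, within 2-fold, for ERRFI1, 0.88 (0.82 to 0.94). KITLG did not differ between the hairpins beyond counting error, -0.80 (-1.81 to 0.01). EGFR, ERBB2 and HBEGF differed by at most 0.08 on the log2 scale in either direction with TMM, and EGFR was at -0.24 with library totals. Between the doses, 5 μM was below 1 μM past 2-fold for ERBB3, -1.97 (-2.47 to -1.55), EGFR, -1.55 (-1.62 to -1.49), and AREG, -1.26 (-1.48 to -1.05), and above it for EREG, 1.31 (0.99 to 1.66). KITLG was 0.35 (0.14 to 0.56) higher at 5 μM than at 1 μM with TMM, which turned to -0.39 with library totals, and ERRFI1 turned likewise from 0.52 to -0.22.

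**Figure D5:**
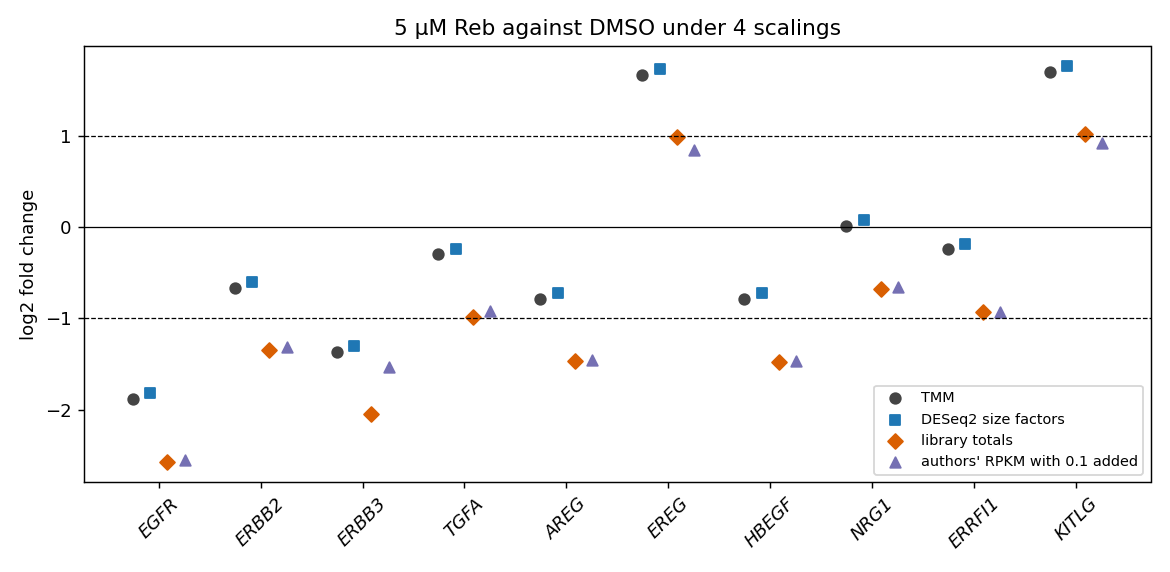
Log2 fold change of the 10 genes at 5 μM Reb against DMSO with TMM, DESeq2 size factors, library totals and the authors' RPKM with 0.1 added, 1 symbol each, and dashed lines at 2-fold. TMM and DESeq2 lie close together. Library totals and RPKM lie lower for every gene, and the median of all genes moved by -0.68 and -0.64 with them, so that ERBB2, AREG and HBEGF go past 2-fold and EREG no longer does. KITLG falls short of 2-fold with RPKM (0.92) but not with library totals (1.02).

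The order of the 10 genes per length was taken within each library. With the scramble-shRNA, HBEGF (34.1 RPKM), ERRFI1 (29.6) and EGFR (20.0) came first, NRG1 (8.10) and AREG (7.23) followed with overlapping intervals, then ERBB2 (5.06) and TGFA (2.67), and EREG (0.555), KITLG (0.525) and ERBB3 (0.362) closed the order with each neighbour's interval overlapping the next. With DMSO, ERRFI1 (41.6 RPKM, interval 40.7 to 42.5) and HBEGF (39.0 to 41.0) overlapped and were followed by EGFR (28.6), AREG (9.47), ERBB2 (6.54), NRG1 (3.21), TGFA (1.72), KITLG (0.639) and ERBB3 (0.597), which overlapped, and EREG (0.376). KITLG was last with both hairpins, at 0.197 and 0.0963 RPKM. At 1 μM it was above ERBB3 and EREG, at 1.71 RPKM, and at 5 μM also above TGFA, at 1.30 RPKM against 0.867. The 2 experiments were normalized separately, so no level was compared between them.

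The ligand total, TMM-scaled, was 51.2, 56.6 and 46.3 in the knockdown libraries and 48.1, 41.7 and 32.5 in the Reb libraries in order of dose, log2 differences of 0.14, -0.14, -0.20 and -0.57. AREG made up 13.4% of the ligand RPKM with the scramble-shRNA, 15.0% with CDK16-sh1 and 6.84% with CDK16-sh2. In the Reb libraries its share was 16.97%, 27.2% and 14.6% in order of dose. AREG thus held its largest share at 1 μM, where HBEGF held its smallest, 59.0%.

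Of the other 7 ErbB receptors and ligands, NRG2 and NRG4 passed the filter on low values. NRG4, a ligand of ERBB4, had 92, 114 and 254 counts with DMSO, 1 μM and 5 μM, log2 fold changes of 0.28 and 2.54. In the knockdown experiment it had 44, 27 and 36 counts, -0.92 and -0.17. NRG2 had 81, 125 and 33 counts in the knockdown experiment, 0.34 and -1.15, and 97, 154 and 89 in the Reb experiment, 0.63 and 0.97. EGF had 22, 7 and 3 counts, then 64, 45 and 8. BTC had at most 12 counts in a library, NRG3 at most 3 and EPGN at most 1.

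Of 9 genes that release and deliver the ligands, 1 was lower with each hairpin, beside 6.86% and 7.62% of all genes, and none was higher. Of the 8 tested with Reb, 1 was lower at 1 μM, beside 1.92% of all genes, and 4 were lower and 2 higher at 5 μM, beside 27.2% and 23.6%. RHBDF2 (iRhom2), which carries ADAM17 to the cell surface, was lower past 2-fold at both doses, beside 1.08% of all genes. It had 1787, 785 and 81 counts and log2 fold changes of -1.21 and -3.34. ADAM17 itself was among the 2 higher at 5 μM, with 3129, 3097 and 3480 counts and log2 fold changes of -0.04 and 1.26. ADAM17 is given here after its values were seen.

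Genes downstream of the receptors were counted by list, beside the shares of all genes given above: 6.86% lower and 4.33% higher with CDK16-sh1, 7.62% and 2.2% with CDK16-sh2, and 27.2% and 23.6% at 5 μM. Of 19 tested adaptors and proximal effectors, 1 was lower with each hairpin (medians -0.37 and -0.17), none passed 2-fold at 1 μM, and 5 were higher and 1 lower at 5 μM (median 0.65). Of 22 genes of receptor attenuation and trafficking, 3 were lower with CDK16-sh1 (median -0.33) and none with CDK16-sh2 (median -0.03) or at 1 μM, and 6 were higher and 4 lower at 5 μM (median 0.57). Of 21 genes known to respond to ERK signalling, 6 were higher and none lower with CDK16-sh1 (median 0.38), whereas 2 were higher and 5 lower with CDK16-sh2 (median -0.38).

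At 1 μM Reb, 5 of these 21 ERK-responsive genes were lower, beside 1.92% of all genes, and none was higher, beside 1.28% (median -0.43). At 5 μM, 8 were lower, beside 27.2% of all genes, and 7 higher, beside 23.6% (median -0.36). Both hairpins gave 2 of the 21 genes higher, beside 0.438% of all genes, and none lower, beside 1.44%. Both doses gave 2 lower, beside 1.08%, and none higher, beside 0.645%. These genes are named because they passed 2-fold in both libraries. MYC, a transcription factor, was higher with both hairpins, with 2853, 11280 and 6340 counts and log2 fold changes of 1.71 and 1.26. FOSL1 (FRA-1), a subunit of AP-1, was also higher, with 22090, 60375 and 51293 counts, 1.17 and 1.32. ETV4, an ETS-family factor, was lower at both doses, with 2249, 1070 and 181 counts, -1.09 and -2.52. So was PHLDA1, with 64722, 31857 and 6489 counts, -1.05 and -2.21. The other genes of the list lower at 1 μM were higher past 2-fold at 5 μM, and are given after their values were seen. They were EGR1, at -3.34 and 2.73, FOS, at -2.56 and 2.34, and IER3, at -1.03 and 1.63.

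Receptors and ligands of other growth factor families were compared alongside. Of 21 tested in the knockdown experiment, 1 was higher and 1 lower with CDK16-sh1, beside 4.33% and 6.86% of all genes, and 3 were lower with CDK16-sh2, beside 7.62%. Of 25 tested in the Reb experiment, 2 were higher and 1 lower at 1 μM, beside 1.28% and 1.92%, and 2 were higher and 10 lower at 5 μM, beside 23.6% and 27.2%.

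The search for genes of similar values covered 10554 candidates, which averaged 5 CPM or more in each experiment. Genes as scarce as KITLG in the knockdown experiment (1.65 CPM on average) were therefore not searched. Across the 4 comparisons, the candidate nearest to KITLG was PSAT1, an enzyme of serine synthesis. Its log2 fold changes were -1.07, -1.70, 0.84 and 1.62, a Euclidean distance of 0.733. PRTFDC1 (0.918), SDC2 (0.938), ID4 (1.07) and SLC39A8 (1.10) came next by distance. The other 9 genes had nearer neighbours: GMIP for EGFR (0.131), UBE2D4 for ERBB2 (0.0713), KHK for ERBB3 (0.296), NMNAT2 for AREG (0.227), C1orf216 for EREG (0.139), PPP4R1L for HBEGF (0.118), CXorf38 for TGFA (0.238), CTD-3131K8.2 for NRG1 (0.0669) and ADPRHL1 for ERRFI1 (0.394). Within the 10 genes the closest pairs were ERBB2 with HBEGF (0.485) and AREG with TGFA (0.670). These distances rest on 4 differences from 2 shared controls and are a description. Whether KITLG has nearer neighbours among the scarcer genes left out was not tested.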

How the data were processed

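Messenger RNA of MDA-MB-231 cells was sequenced by the authors from stranded libraries on a HiSeq X 10. The submitters' processing notes name Trimmomatic, featureCounts of Subread 1.5.1 and GRCh38. The aligner, the annotation and the strand setting are not given in the sources used here. The deposited tables hold the authors' whole-number read counts per gene symbol, without normalization, and RPKM values that the authors computed from these counts, gene length and library total. Coordinates are those of the deposited tables. Exon overlaps were found from the same coordinates, and GC content was taken from GENCODE 29.

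Counts were scaled with TMM in edgeR 4.0.16 (R 4.3.3), separately per experiment. Log2 fold changes used a prior count of 2 and genes whose mean over the experiment reached 1 CPM. With 1 library per group no test was run. A call is a difference past 2-fold, the fold threshold of the study. Intervals are 95% Clopper-Pearson intervals of the counts of 2 libraries. The counts are of reads, and reads can be copies of 1 molecule, which these intervals leave out. Total counts were 25838443, 31955119 and 27499155 for the scramble-shRNA, CDK16-sh1 and CDK16-sh2, and 50303269, 49367654 and 37655548 for DMSO, 1 μM and 5 μM Reb.

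The 10 genes and all gene lists were chosen with earlier results of these data known. Named besides the 10 genes were the targeted gene, the other ErbB genes, up to 4 genes per list whose mean reached 5 CPM and that lay past 2-fold the same way in both treated libraries, the 5 genes nearest to KITLG and the nearest gene of each other member by Euclidean distance. Exceptions are stated. The alternatives were DESeq2 1.42.0 size factors, library totals, the authors' RPKM with 0.1 added, prior counts of 0.5 and 5, other filters, thresholds of 1.5-fold and 4-fold, and removal of trends with GC content or with expression and length (loess span 0.3). The calculation of fold changes was tested on simulated data. Motifs were searched on both strands in the 250 bases before each start in the RefSeq promoter table (GRCh38.p14).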

Additional observations from a re-analysis of the deposited data

Results flagged for a closer look

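AREG, ERBB3 and TGFA lay on opposite sides of the control in the 2 treated libraries of an experiment. Each value comes from 1 library, and the difference was not tested. AREG had a log2 fold change of 0.31 with CDK16-sh1 and -1.11 with CDK16-sh2, and of 0.48 at 1 μM and -0.78 at 5 μM Reb. ERBB3 had 0.60 at 1 μM and -1.37 at 5 μM. TGFA had 0.46 at 1 μM and -0.30 at 5 μM. For each of these values the 95% counting interval lay wholly on its side of 0. With the trend of expression and length removed, however, AREG with CDK16-sh1 went to 0.06. TGFA at 5 μM went to 0.04, the other side of 0. The 5 μM library also had the highest share of mitochondrial counts, 16.4%, and the CDK16-sh2 library had 16.2% against 10.4% with CDK16-sh1, and the part of either in these values was not tested.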

How the results depend on the processing

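No paired analysis was possible because each group had 1 library, and for the same reason no replicate could be left out. Of 60 fold changes of the 10 genes (6 comparisons), prior counts of 0.5 and 5 moved none beyond its counting interval, DESeq2 size factors moved 4, no filter 10, library totals 32 and RPKM 30. Of those against a control, removing the GC trend moved 16 and left 24, and removing the trend of expression and length moved 18 and left 22. The median of all genes shifted by -0.68 (library totals) and -0.64 (RPKM) at 5 μM, and by -0.19 and -0.19 with CDK16-sh2. The stricter filter left out ERBB3 and EREG in both experiments and KITLG in the knockdown. GC content was known for 84.6% and 84.3% of the genes tested. Low counts limit KITLG, ERBB3 and EREG most.

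For the 10 genes, the number lower with CDK16-sh1 went from 1 to 0 with the 5 CPM filter, with the GC trend removed and at 4-fold, and the number higher from 0 to 1 with the GC trend removed. With CDK16-sh2, 1 was lower at 4-fold in place of 3, and 1 was higher at 1.5-fold in place of 0. At 1 μM, 1 was lower at 1.5-fold in place of 0, and 2 were higher at 1.5-fold and 0 at 4-fold in place of 1. At 5 μM, in place of 2 lower there were 5 with library totals, 5 with RPKM, 1 with the 5 CPM filter, 5 at 1.5-fold and 0 at 4-fold, and in place of 2 higher there were 1 with library totals, 0 with RPKM, 1 with the 5 CPM filter and 0 at 4-fold.

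For all genes, the 1049 lower with CDK16-sh1 became 2730 with no filter, 661 with the 5 CPM filter, 576 with the GC trend removed, 2873 at 1.5-fold and 67 at 4-fold, and the 663 higher became 2172, 364, 341, 2531 and 34. With CDK16-sh2, the 1166 lower became 3222 with no filter, 758 with the 5 CPM filter, 2574 at 1.5-fold and 166 at 4-fold, and the 336 higher became 1897, 154, 1688 and 8, and 152 with library totals and 123 with RPKM. At 1 μM, the 300 lower became 2267, 122, 1125 and 53 with the same 4 settings, and the 200 higher 2440, 42, 953 and 10. At 5 μM, the 4254 lower became 6792 with library totals, 6490 with RPKM, 8286 with no filter and 1580 at 4-fold, and the 3695 higher 1835, 1734, 8070 and 1272. The cause was not tested beyond what each setting changes by construction.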
